A study of Homo sapiens with 14 samples.

Results

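The genes of cadherin adhesion and of caveolae described here are 10 of the 58440 genes counted in each library: the cadherins CDH1 and CDH2, the catenins CTNNA1, CTNNA2, CTNNB1, CTNND1 and JUP, and the caveola genes CAV1, CAV2 and CAVIN1. They were taken by symbol, through the gene identifiers of the GENCODE annotation. The RNA came from HEK-293T, an adherent line of human embryonic kidney, from Jurkat, a line of human leukemic T cells that does not attach, and from mixtures of their cells. Pools of 1000000 cells held 100%, 80%, 60%, 50%, 40%, 20% or 0% HEK cells, the rest being Jurkat cells. Each of these 7 conditions had 2 libraries called technical replicates. P-values between the pure lines therefore measure only the spread between technical replicate libraries. P-values and intervals of slopes over the mixtures also take in departures of the mixtures from a straight line in log2 level. Each cell type was represented by 1 established line. Levels are given as CPM, a gene's share of all counts on genes in parts per 1000000, without the ERCC spike-ins, synthetic RNAs put in the captured mRNA at a fixed volume.

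Classical cadherins are membrane proteins that bind the same or a similar cadherin on the next cell, and their cytoplasmic tails hold beta-catenin (CTNNB1) or plakoglobin (JUP) and p120-catenin (CTNND1). Alpha-catenins bind beta-catenin and connect it to actin, while beta-catenin that is not held at the membrane also acts in Wnt signaling with TCF and LEF factors in the nucleus. Caveolae are small pits of the plasma membrane built from caveolins and cavins, and they are frequent in adherent cells and rare in lymphocytes.

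The pure HEK libraries held 9452243 and 15158082 counts on genes, and the pure Jurkat libraries 4468822 and 6204316. The mixed libraries held from 9675274 to 28303668 counts. A floor of 3 counts was worth 0.317 and 0.198 CPM in the pure HEK libraries and 0.671 and 0.484 CPM in the pure Jurkat libraries, and such floors and all counting intervals cover counting error only, because copies made by PCR cannot be recognized. By their file names the libraries form groups of 8 and 6, whose meaning is not given. The group of 8 held pure Jurkat and the group of 6 pure HEK, so that cell line and file group cannot be told apart there. Of the mixtures, only those with 60% and 50% HEK cells had a library in each group.

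T cell markers followed the labels. Summed over 10 T cell genes, the level was 19.8 and 15.7 CPM in pure HEK and 2973 and 3353 CPM in pure Jurkat, where PTPRC was the most abundant, and CD5 was at 0 counts in both pure HEK libraries. In both libraries with 60% HEK cells the sum was 244 and 257 CPM, and with 50% it was 375 and 340 CPM. Of the epithelial keratins, KRT8 had 329 counts over both pure HEK libraries and 14 over both pure Jurkat libraries, KRT18 had 811 and 1, and KRT19 was at 0 counts in all 4 pure libraries.

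Of the members tested, only alpha-catenin 1 did not separate the pure lines. CDH2, which encodes N-cadherin (chr18:27932879-28177946 in GRCh38, minus strand), was at 101 and 115 CPM in pure HEK and at 28.3 and 16.2 CPM in pure Jurkat. In the mixtures CDH2 was at 95.5 and 71.8 CPM with 80% HEK cells, 84.0 and 92.0 CPM with 60%, 94.0 and 85.7 CPM with 50%, 67.2 and 63.5 CPM with 40%, and 91.1 and 91.6 CPM with 20%. All 10 mixed libraries lay between the pure lines without overlap with either, and the 40% mixture was the lowest mixture although the 20% mixture held fewer HEK cells. The level of CDH2 was higher in both pure HEK libraries than in both pure Jurkat libraries, by 2.06 on the log2 scale (SE 0.32, edgeR quasi-likelihood adjusted p = 0.00697 over all genes tested). In pooled counts CDH2 was 5.15-fold higher in HEK, with a 95% counting interval from 4.50 to 5.93. CDH2 was thus also counted in pure Jurkat, with 127 and 101 counts. From the CPM of a bulk library alone, fewer cells of a type and less RNA per cell cannot be told apart.

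CDH1, the gene of E-cadherin (chr16:68737292-68835537, plus strand), was low throughout. It was at 1.91 and 2.77 CPM in pure HEK, or 18 and 42 counts, and at 0.448 and 0.322 CPM in pure Jurkat, or 2 counts in each library. From 1.71 to 3.01 CPM were measured in the 10 mixed libraries, all above both pure Jurkat libraries. In pooled counts, CDH1 was 6.52-fold higher in HEK, with a counting interval from 2.41 to 24.6. The fitted log2 difference of 2.39, with both HEK libraries above both Jurkat libraries, had an adjusted p of 0.0235 in edgeR, but 0.136 in DESeq2 and 0.192 in limma on log2(TPM + 1), and leaving out any 1 of the 4 pure libraries raised it to between 0.0684 and 0.266. A long noncoding gene on the other strand of the CDH1 locus had 5 and 4 counts in the pure Jurkat libraries, and since no source says that strand was used in counting, reads of these genes cannot be told apart. Compared per transcript length, CDH1 made up 2.83% ± 0.776 (SD, n = 2) of the TPM of both cadherins in pure HEK, so that N-cadherin was the more abundant.

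Of 21 other cadherins, 3 were tested and 18 were too low in the pure libraries, of which CDH5, CDH9, CDH16, CDH19 and CDH20 had 0 counts in all 4. CDH4 passed the filter on low counts through the pure Jurkat libraries alone, and CDH12 and CDH23 through the pure HEK libraries alone, so that each could be called in 1 direction only. CDH4, which encodes R-cadherin, showed the opposite order to CDH2. Pure Jurkat libraries had 170 ± 23.0 CPM (SD, n = 2) of CDH4 and pure HEK libraries 1.09 ± 0.0449 CPM, without overlap, a log2 difference of -7.49 (SE 0.29, edgeR adjusted p = 0.00064). Its mean was 48.6 CPM with 20% HEK cells and 19.1 CPM with 50%. Per length, CDH4 reached 36.6 TPM in pure Jurkat, against 4.96 TPM of CDH2 in the same libraries and 24.7 TPM of CDH2 in pure HEK. CDH12 and CDH23 were called higher in HEK, with 71 and 58 counts summed over the pure HEK libraries and 4 and 3 over the pure Jurkat libraries. DESeq2 called neither (adjusted p = 0.075 and 0.115). Leaving out either pure HEK library ended both calls, with an adjusted p of 0.223 or 0.113 for CDH12 and 0.197 or 0.224 for CDH23. The call of CDH12 was also lost without the second pure Jurkat library (0.104) and in limma on log2(TPM + 1) and log2(TPM + 0.1) (0.426 and 0.391), and that of CDH23 without the first pure Jurkat library (0.0748) and with the file group as a term (0.096).

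The beta-catenin gene CTNNB1 (chr3:41194741-41260096, plus strand) was at 107 and 124 CPM in pure HEK and 31.3 and 35.0 CPM in pure Jurkat. With 80% and 60% HEK cells it was at 90.5 and 102 CPM, and at 130 and 116 CPM. With 50%, 40% and 20% it was at 73.1 and 145 CPM, 66.5 and 108 CPM, and 72.5 and 80.8 CPM. Each mixed library was above both pure Jurkat libraries, and the libraries of the 50% and 40% mixtures lay far apart within their condition. In the 50% mixture the lower library belonged to the file group of 8 and the higher to the group of 6, with 60% the library of the group of 8 was at 116 CPM and the other at 130 CPM, and both libraries with 40% were in the group of 8. Both pure HEK libraries were above both pure Jurkat libraries, by 1.57 on the log2 scale (SE 0.22, edgeR adjusted p = 0.00491), the smallest difference among the members called. ULK4, on the other strand across CTNNB1, had 29 and 45 counts in pure Jurkat beside 140 and 217 of CTNNB1.

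JUP, encoding plakoglobin, which takes the place of beta-catenin at cadherins and also sits in desmosomes, lies at chr17:41754604-41786931 (minus strand). Its level was 12.2 and 16.7 CPM in pure HEK and 1.57 and 1.29 CPM in pure Jurkat, where 7 and 8 counts were found. With 20% HEK cells it was at 7.00 and 7.96 CPM, below the other mixtures, which ranged from 8.55 to 18.8 CPM. The log2 difference between the pure lines, which did not overlap, was 3.12 (SE 0.35, edgeR adjusted p = 0.00267). JUP made up 12.2% ± 2.69 (SD, n = 2) of the TPM of JUP and CTNNB1 in pure HEK and 3.94% ± 0.574 in pure Jurkat, so the libraries of the lines did not overlap in this share.

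CTNND1, encoding p120-catenin, which binds the part of the cadherin tail near the membrane, lies at chr11:57753243-57819546 (plus strand). It was at 28.5 and 32.3 CPM in pure HEK and 2.91 and 4.68 CPM in pure Jurkat, at 16.6 ± 0.741 CPM (SD, n = 2) with 20% HEK cells and from 21.1 to 38.8 CPM in the other mixed libraries. Both pure HEK libraries were above both pure Jurkat libraries, by 2.75 on the log2 scale (SE 0.31, edgeR adjusted p = 0.00268). Without overlap, the 20% mixture was above pure Jurkat and below every other condition.

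CTNNA1, the alpha-catenin of most tissues (chr5:138610967-138935034, plus strand), was at 51.1 and 74.3 CPM in pure HEK but at 112 and 29.2 CPM in pure Jurkat. In the mixtures it was at 43.2 and 47.8 CPM with 80% HEK cells, 50.4 and 55.5 CPM with 60%, 65.5 and 56.2 CPM with 50%, 37.2 and 58.2 CPM with 40%, and 46.7 and 40.6 CPM with 20%. The pure Jurkat libraries lay on either side of all 12 other libraries, 3.86-fold apart. In pooled counts the ratio of HEK over Jurkat was 1.02 (counting interval from 0.933 to 1.12). Of 8333 genes with at least 100 counts over the pure Jurkat libraries, 149 (1.79%) were at least as far apart, and the median gene differed 1.25-fold. The average transcript length that RSEM assigned to CTNNA1, after correction for read length, was 573 bases in the first pure Jurkat library, 1266 in the second and from 1214 to 2016 in the others. The fitted difference was -0.39 on the log2 scale (95% interval from -1.98 to 1.21, edgeR adjusted p = 0.649), with 1 pure Jurkat library above and 1 below both pure HEK libraries, and it turned to 3.11 with spike-in scaling. Of the 4 pure libraries left out in turn, only the first of Jurkat turned it, to 0.87 (adjusted p = 0.113), and without the second it was -1.05 (adjusted p = 0.0656). CTNNA2, the alpha-catenin of neurons (chr2:79185231-80648861, plus strand), had 0 counts in all 4 pure libraries and at most 1 count in any mixed library.

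The genes with profiles most like these members over the 14 libraries were found by the Euclidean distance between CPM profiles scaled to sum to 1, among 11459 genes with a mean of at least 5 CPM. For CTNNB1, the member with the highest mean CPM in pure HEK, they were PDXK, COX7A2L and XBP1, at distances of 0.0131, 0.0165 and 0.0167 against a median of 0.104. CTNNA1 was taken for its higher mean CPM in pure Jurkat, 70.8 against 62.7 CPM in pure HEK. It was the only member tested and not called between the pure lines, with pure Jurkat libraries 3.86-fold apart. The genes most like CTNNA1 were POGK, PPP5C and SNUPN, at distances of 0.0415, 0.0415 and 0.0471 against a median of 0.128. The distance takes in both pure Jurkat libraries, and each of these genes was also higher in the first of them, so that the likeness is in part one of this gap.

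In the main edgeR fit the caveola genes had the largest fitted differences among the members, where values of genes near 0 counts in Jurkat depend on a prior count. In an alternative fit CAV2 fell to 1.70 on the log2 scale, while the lowest value of JUP over the alternatives was 1.97. CAV1, which encodes caveolin-1, the main coat protein of caveolae, lies at chr7:116524994-116561179 and CAV2, encoding its partner caveolin-2, at chr7:116287380-116508541, both on the plus strand with 16452 bases between them. CAVIN1, whose product coats caveolae from the cytoplasm, lies at chr17:42402449-42423256 on the minus strand. RefSeq promoters (GRCh38.p14, 250 bases before to 50 bases after a start) were found for 7 of the 10 members, with no entry for CDH1, CTNND1 and CAVIN1. Shown are those of the neighbors CAV1 and CAV2, which were both near 0 counts in pure Jurkat, and of JUP and CDH2, each at the start of the main GENCODE transcript, with the GC box GGGCGG or its reverse complement CCGCCC in capitals. They span chr7:116524786-116525085 (plus strand), chr7:116499488-116499787 (plus strand), chr17:41786662-41786961 (minus strand) and chr18:28177081-28177380 (minus strand).
CAV1: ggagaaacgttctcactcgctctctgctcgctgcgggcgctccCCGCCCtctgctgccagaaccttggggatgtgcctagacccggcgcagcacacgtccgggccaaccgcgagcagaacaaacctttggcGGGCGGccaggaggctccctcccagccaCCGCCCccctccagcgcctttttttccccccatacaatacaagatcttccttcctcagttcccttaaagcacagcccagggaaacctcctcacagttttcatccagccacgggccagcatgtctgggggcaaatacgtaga
CAV2: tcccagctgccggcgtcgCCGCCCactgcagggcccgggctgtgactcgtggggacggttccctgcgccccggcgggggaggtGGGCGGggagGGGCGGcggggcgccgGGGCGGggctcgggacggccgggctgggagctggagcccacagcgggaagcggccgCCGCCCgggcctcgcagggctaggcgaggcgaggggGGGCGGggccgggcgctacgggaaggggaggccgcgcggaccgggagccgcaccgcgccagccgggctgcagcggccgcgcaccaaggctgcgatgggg
JUP: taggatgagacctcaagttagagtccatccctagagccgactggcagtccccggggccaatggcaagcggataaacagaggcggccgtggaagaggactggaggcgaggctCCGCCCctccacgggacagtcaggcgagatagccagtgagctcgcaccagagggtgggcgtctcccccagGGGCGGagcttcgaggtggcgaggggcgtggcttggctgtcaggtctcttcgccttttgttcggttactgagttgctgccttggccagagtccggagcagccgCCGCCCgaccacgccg
CDH2: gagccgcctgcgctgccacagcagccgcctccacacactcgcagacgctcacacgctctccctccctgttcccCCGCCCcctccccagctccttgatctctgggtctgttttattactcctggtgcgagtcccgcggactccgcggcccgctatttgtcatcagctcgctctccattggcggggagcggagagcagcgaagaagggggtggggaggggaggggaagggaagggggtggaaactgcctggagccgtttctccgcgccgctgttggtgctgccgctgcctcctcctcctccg
The GC box occurred 3 times in CAV1, 6 times in CAV2, 3 times in JUP and 1 time in CDH2. It was in all 7 members' windows, and 45.0% of 35116 promoters of 300 bases held it on either strand. G and C made up 61.7% of the bases of the CAV1 promoter, 82.7% of CAV2, 65.3% of JUP and 67.0% of CDH2, against a median of 58.7%. The E-box CAGGTG (reverse CACCTG) and the letters CTTTGA (reverse TCAAAG), part of the site of TCF and LEF factors, were in none of the 7 members' windows, and 20.6% and 12.9% of all promoters held them. These motifs were picked with the levels known, and a match or its absence is a description of letters only.

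CAV1 was at 14.7 and 15.0 CPM in pure HEK, and in pure Jurkat it had 1 count in the first library and 0 in the second. It was at 16.6 and 15.0 CPM with 80% HEK cells, 16.5 and 17.8 CPM with 60%, 10.4 and 16.7 CPM with 50%, 15.6 and 14.8 CPM with 40%, and 8.86 and 10.0 CPM with 20%. CAV1 thus stayed near its pure HEK level down to 40% HEK cells, with the exception of 1 library of the 50% mixture, and both libraries of the 20% mixture were below every library of a higher HEK percentage. In pooled counts it was 159-fold higher in pure HEK, with a counting interval from 28.3 to 6286. CAV2 was at 8.04 and 8.00 CPM in pure HEK and had 1 count in each pure Jurkat library. Its pooled ratio was 42.8 (counting interval from 11.7 to 355), and the mixtures ranged from 4.72 to 9.50 CPM. CAVIN1 was at 22.1 and 27.4 CPM in pure HEK and 0.895 and 0.806 CPM in pure Jurkat, or 4 and 5 counts, and from 16.8 to 35.9 CPM in the mixtures. In pooled counts CAVIN1 was 30.1-fold higher in pure HEK (counting interval from 15.8 to 66.2). For each of these 3 genes both pure HEK libraries were above both pure Jurkat libraries, and the adjusted p in edgeR was 0.00151 for CAV1, 0.0015 for CAV2 and 0.00087 for CAVIN1. By TPM, CAV2 made up 14.2% ± 0.283 (SD, n = 2) of CAV1 plus CAV2 in pure HEK, and by expected counts, not divided by length, 35.1% ± 0.366.

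Counted together, 9 of the 10 members were tested between the pure lines, since CTNNA2 was too low, and 8 were called higher in HEK, among 24.2% of 15794 genes tested that were called in this direction. None was called higher in Jurkat, where 19.0% of genes were (0 members also at an unadjusted p under 0.05 in edgeR, and 0 in DESeq2). CDH1, CAV1, CAV2 and CAVIN1 passed the filter on low counts through the pure HEK libraries alone and could only be called in this direction, so the count is no support for a shared behavior. Over all genes tested the median log2 difference was 0.07. In the fit of all 14 libraries with the file group as a term, the same 8 members were called, but this term rests on the mixtures with 60% and 50% HEK cells and on additive log levels.

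**Figure D1:**
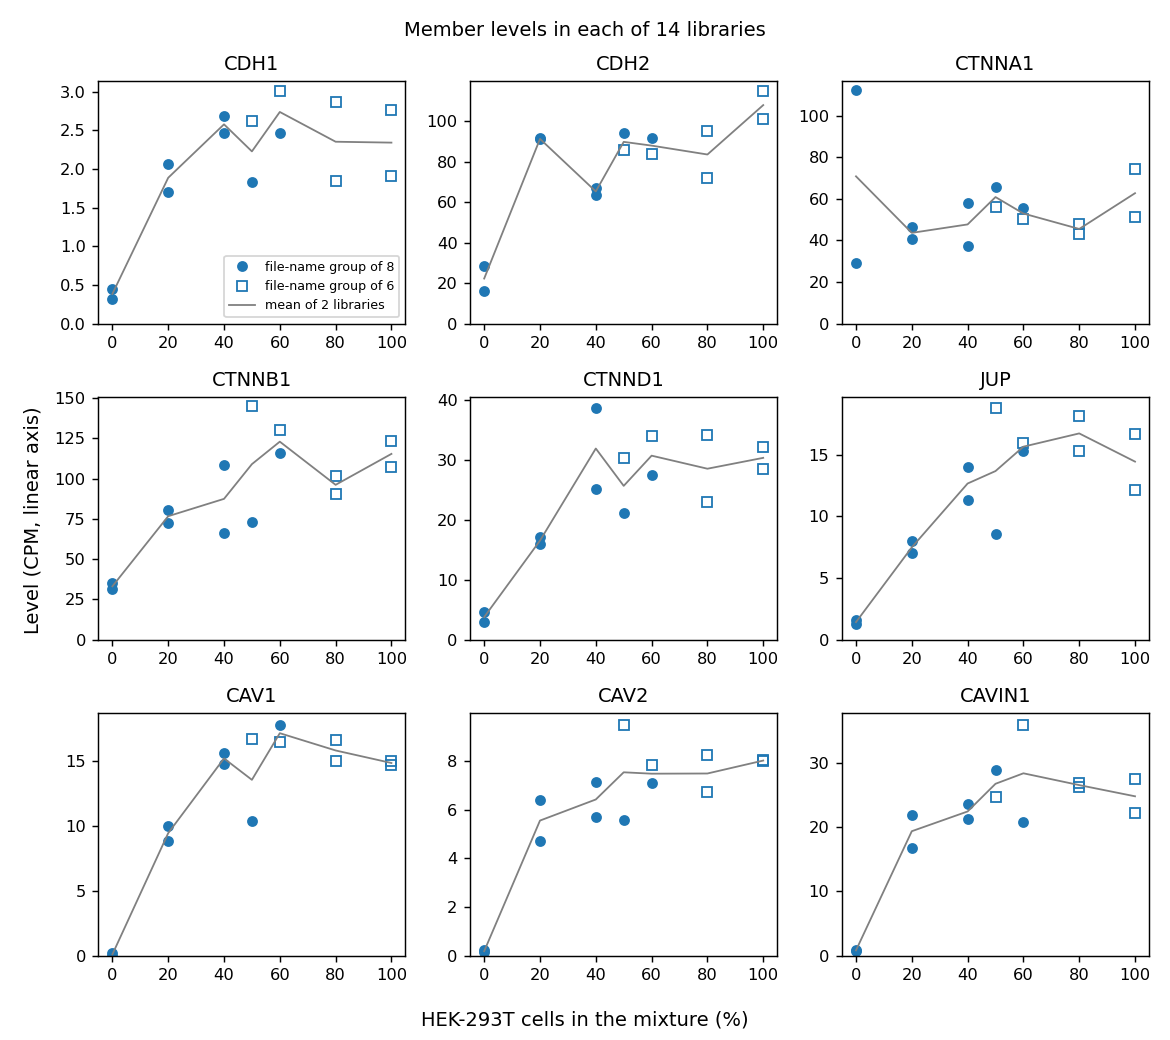
CPM of 9 members (linear axes from 0) against the percentage of HEK-293T cells, with filled circles for libraries of the file group of 8, open squares for the group of 6 and a line through the mean of 2 libraries. CAV1 falls from 8.86 and 10.0 CPM with 20% HEK cells to at most 0.224 CPM in pure Jurkat, while the pure Jurkat libraries of CTNNA1 lie at 112 and 29.2 CPM.

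Of 24 other catenins and junction partners, 19 were tested, 12 were called higher in HEK, as were 24.2% of all genes tested, and 0 higher in Jurkat, as were 19.0% (also 0 at an unadjusted p under 0.05, and 0 in DESeq2). Of these 12, NECTIN2, DSP, DSC2, DSC3 and TJP1 passed the filter through the pure HEK libraries alone and could only be called in this direction. PKP2, above its cutoff in 1 of the 2 pure Jurkat libraries, also needed the pure HEK libraries to pass. The largest differences were in DSP, encoding desmoplakin, which ties desmosomes to keratin, in the desmosomal cadherins DSC3 and DSC2, and in TJP1, encoding the tight junction scaffold ZO-1. DSP was at 230 ± 104 CPM (SD, n = 2) in pure HEK and 0.788 ± 0.481 CPM in pure Jurkat. DSC3 was at 53.3 ± 31.0 CPM in pure HEK with 2 counts over both pure Jurkat libraries, DSC2 at 31.6 ± 7.27 CPM with 4 counts, and TJP1 at 17.7 ± 3.09 CPM with 2 counts. These 4 genes kept their calls in all 12 alternative fits. CTNND2 and PKP3 had 0 counts in all 4 pure libraries.

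Of 10 other caveola genes, 8 were tested and 2 were called higher in HEK, where 24.2% of all genes were, both of which passed the filter through the pure HEK libraries alone. CAV3, the caveolin of muscle, was at 3.41 ± 0.258 CPM (SD, n = 2) in pure HEK and at 0 counts in pure Jurkat. In pooled counts, its counting interval for the ratio of HEK over Jurkat had a lower limit of 9.54. Leaving out either pure HEK library ended this call (edgeR adjusted p = 0.0601 and 0.0548). EHD2, an ATPase at the neck of caveolae, was at 2.27 ± 0.228 CPM in pure HEK and 0.546 ± 0.139 CPM in pure Jurkat. Its call was lost in 6 of 12 alternative fits, in DESeq2 (adjusted p = 0.241), with the file group (0.136) and without any 1 pure library (from 0.0911 to 0.312). CAVIN2 and CAVIN3 had 0 counts in all 4 pure libraries. In edgeR 0 genes of this list were called higher in Jurkat (1 at an unadjusted p under 0.05, and 0 in DESeq2), against 19.0% of all genes, but 1 was without the filter, with all 14 libraries, with or without the file group, and when either pure Jurkat library was left out.

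Of 15 genes of the destruction complex and of nuclear partners, all tested, 2 were called higher in HEK and 6 higher in Jurkat, with 24.2% and 19.0% of all genes in these directions. TCF7 and LEF1, factors of T cell development that bind beta-catenin, were at 707 ± 26.2 and 867 ± 99.7 CPM (SD, n = 2) in pure Jurkat and at 18.3 ± 3.76 and 34.2 ± 2.05 CPM in pure HEK. TCF7L1, which passed the filter through pure HEK alone, had the opposite order, with 14.8 ± 4.34 CPM in pure HEK and 0.962 ± 0.221 CPM in pure Jurkat. These 3 genes kept their calls in all 12 alternative fits. CSNK1A1 and GSK3B, kinases that phosphorylate beta-catenin for its breakdown, were at 465 ± 45.8 and 80.5 ± 28.8 CPM in pure Jurkat and 192 ± 13.2 and 39.9 ± 8.46 CPM in pure HEK, called higher in Jurkat, and both directions turned when counts were scaled to the spike-ins. The call of CSNK1A1 was lost with the file group as a term (adjusted p = 0.236). That of GSK3B was lost in limma, and without the first pure HEK (0.176), second pure HEK (0.0844) or second pure Jurkat library (0.0954). AXIN2, a Wnt target of the destruction complex, was at 4.53 ± 0.123 CPM in pure HEK and 1.32 ± 0.0376 CPM in pure Jurkat. Its call was lost in 7 of 12 alternative fits, among them DESeq2 (adjusted p = 0.132) and those without the first pure HEK (0.155), second pure HEK (0.188) or second pure Jurkat library (0.0555).

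Of 11 repressors of E-cadherin and epithelial regulators, 8 were tested, 5 were called higher in HEK and 1 higher in Jurkat, against 24.2% and 19.0% of all genes. Of the 5, SNAI2, ZEB2, ESRP2 and EPCAM passed the filter through the pure HEK libraries alone and could only be called in this direction. TWIST1, above its cutoff in 1 of the 2 pure Jurkat libraries, also needed the pure HEK libraries to pass. SNAI2 and ZEB2, both repressors of CDH1, were at 19.4 ± 4.29 and 31.7 ± 9.96 CPM (SD, n = 2) in pure HEK, with 1 and 5 counts over both pure Jurkat libraries. ZEB1, another repressor, was at 490 ± 38.8 CPM in pure Jurkat and 99.7 ± 21.3 CPM in pure HEK, but with spike-in scaling its direction turned and it was not called. The splicing factor ESRP2 and the adhesion protein EPCAM, both typical of epithelia, were at 5.83 ± 0.0103 and 2.39 ± 0.538 CPM in pure HEK, with 2 and 1 counts over pure Jurkat. The call of EPCAM was lost without either pure HEK library (edgeR adjusted p = 0.0847 and 0.132).

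**Figure D2:**
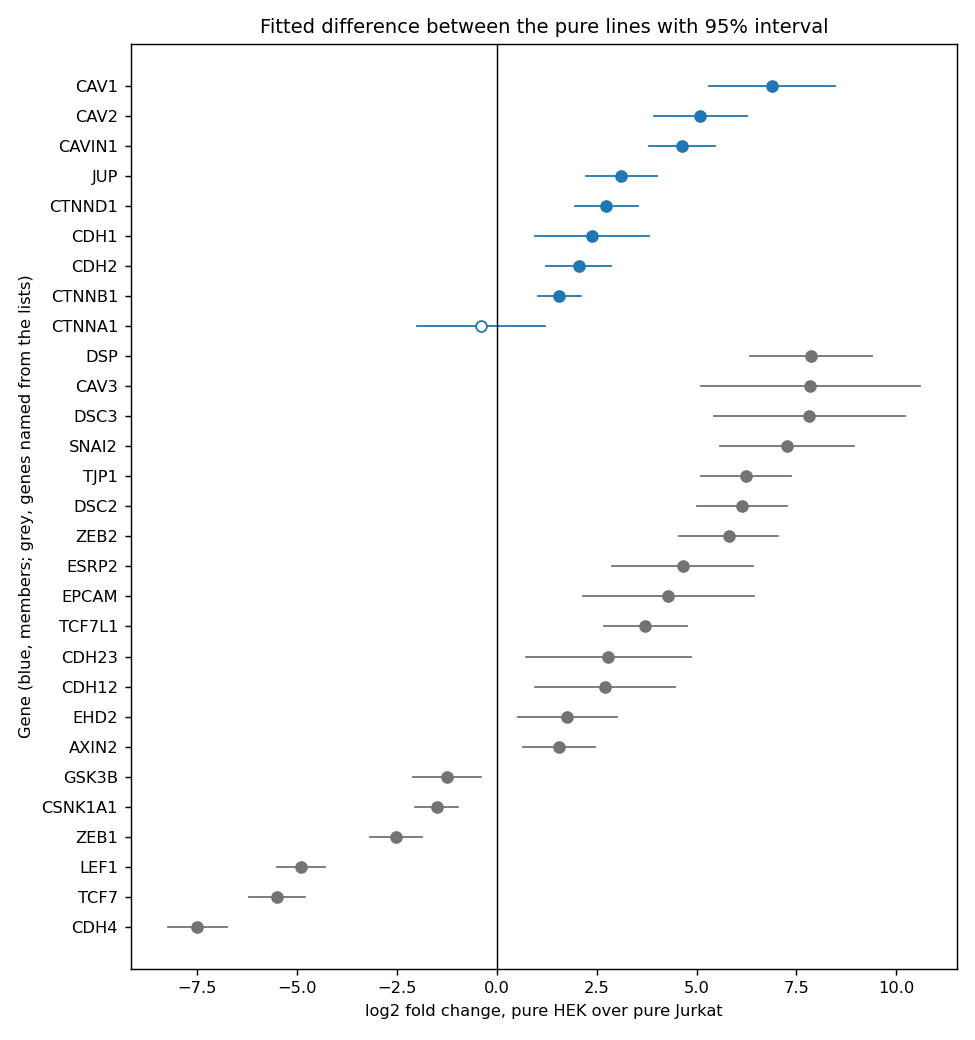
Log2 fold change of pure HEK over pure Jurkat in edgeR with its 95% interval, for 9 members in blue and genes named from the lists in grey, with filled points for genes called and an open point for CTNNA1. Fitted values of genes near 0 counts in Jurkat depend on a prior count, and CTNNA1, ZEB1, CSNK1A1 and GSK3B turn direction with spike-in scaling.

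The mixed libraries ask whether the members follow the share of HEK cells in libraries that the pure comparison did not use. Of the 9 members tested for a slope of log2 level on HEK percentage, 1 was called higher with HEK, where 0.643% of 18516 genes were, and 0 were called lower, where 4.82% were (also 0 at an unadjusted p under 0.05, and 0 in DESeq2). This was JUP, whose level rose by 1.08 on the log2 scale from 20% to 80% HEK cells (95% interval from 0.50 to 1.65, edgeR adjusted p = 0.0319). With the file group as a further term the slope of JUP fell from 1.79 to 1.43 for each 100% HEK cells with an adjusted p of 0.303. Without the filter on low counts the adjusted p was 0.0751, and without either library of the 80%, 60% or 20% mixture it was between 0.0573 and 0.2. Libraries with 80% HEK cells were all in the group of 6 and those with 40% and 20% all in the group of 8. CAV1 had a change of 0.66 (interval from 0.13 to 1.20, adjusted p = 0.166) and CDH2 of -0.04 (interval from -0.60 to 0.51, adjusted p = 0.956), which turned with spike-in scaling, with the file group, and without the second library of the 80% mixture or either of the 20% mixture (slopes of 0.12, 0.10 and 0.09).

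Pure HEK libraries had 122 counts on genes per spike-in count and pure Jurkat libraries 12.2 (means of 147 and 97.3, and of 12.1 and 12.3), a ratio of 10.0. With this ratio the HEK share of the RNA was 71.5% with 20% HEK cells and 97.6% with 80%. For CAV1, the additive change from 20% to 80% HEK cells was 0.44 on the log2 scale. It was 0.40 for JUP and 0.34 for CDH2. These values depend on the ratio, which over the 4 pairs of 1 pure HEK and 1 pure Jurkat library ranged from 7.90 to 12.2, an alternative chosen after seeing the data. The additive change then ranged from 0.34 to 0.48 for JUP and from 0.29 to 0.41 for CDH2. For JUP it was below the lower limit of the interval (0.50) over this whole range of ratios. It would meet that limit at a ratio of 7.44 and lie inside the interval at ratios somewhat lower, so this result for JUP depends on the ratio. For the other 8 members the additive change lay inside the interval at each ratio, and JUP is singled out here because its slope was the only one called. The interval comes from the fit without the file group, with which the call of JUP was lost. That interval rests on a straight line in log2 level with TMM scaling, whereas the additive change compares unscaled CPM at 20% and 80%. These measures are not alike in shape or scaling, and the cause of the difference was not tested.

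Against the level that adding the pure lines by RNA share predicts, CTNNA1 was lowest, with a median log2 ratio of -0.36 over the 10 mixed libraries (SD 0.26), and 1 of 10 libraries was above 0. Its predicted level rests in part on the pure Jurkat libraries that lay 3.86-fold apart. CDH2 had a median of -0.19 (SD 0.26) with 2 of 10 libraries above 0, both with 20% HEK cells. CAV1 had a median of 0.20 (SD 0.25) with 7 of 10 above, CDH1 of 0.23 (SD 0.26) with 7, CAVIN1 of 0.13 (SD 0.23) with 7 and JUP of 0.12 (SD 0.40) with 6. CTNNB1, CTNND1 and CAV2 had medians of -0.17, -0.08 and -0.03. These medians lay within the range from -0.51 to 0.35 that held the middle 90% of 11463 genes with a mean of at least 5 CPM, and apart from CTNNA1 each was smaller than its own SD. CDH1, at no more than 3.01 CPM in any library, was too low to be among these genes.

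**Figure D3:**
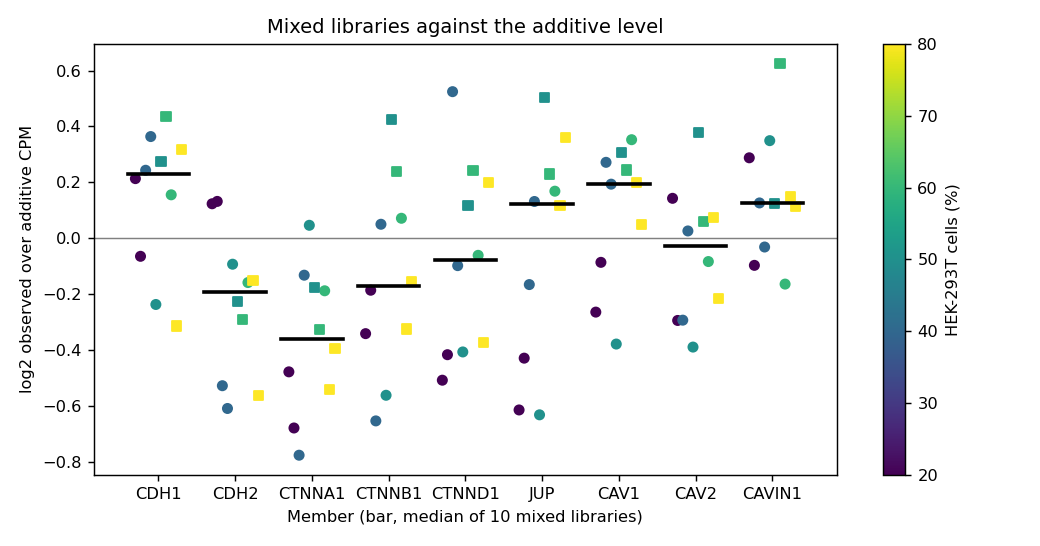
Log2 ratio of observed over additive CPM for 9 members in each of 10 mixed libraries, colored by the percentage of HEK-293T cells, with squares for the file group of 6, circles for the group of 8 and a bar at the median. The bar of CTNNA1 is at -0.36 and that of CDH1 at 0.23.

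Scaled to the spike-ins, the levels refer to the pool of cells and not to the RNA. CTNNA1, not called by CPM, had 7.39 ± 0.211 counts per 1000 spike-in counts (SD, n = 2) in pure HEK and 0.859 ± 0.706 in pure Jurkat. All 9 members tested were called higher in pure HEK on this scale, as were 92.5% of all genes, whose median moved to 3.61 on the log2 scale. Relative to that median, CTNNA1 was at -0.50, CTNNB1 at 1.49 and CDH2 at 1.98. In the mixtures all 9 were called higher with HEK, as were 73.7% of all genes, whose median slope moved from 0.05 to 3.05, and CDH2 lay at -0.25 relative to it. The libraries of a mixture could differ widely on this scale, with 46.6 and 123 counts on genes per spike-in count with 80% HEK cells. Compared with the levels that the percentages of cells give from the pure pools, mean levels per spike-in were lower in each mixture for all genes together and for each of the 9 members, except JUP with 80% HEK cells, at 107%. With 80% HEK cells, all genes together and the members other than CDH2 and CTNNA1 lay below that level in the first library and above it in the second. For CTNNB1 these were 4.21 and 12.5 counts per 1000 spike-in counts, against 11.2. CDH2 and CTNNA1 were below it in both libraries. With 50% HEK cells the members were at 46.0% to 64.2% of that level and all genes together at 52.0%. CDH2 was at 63.3% with 80% HEK cells, 48.2% with 40% and 73.4% with 20%, where all genes together were at 84.6%, 70.2% and 66.3%. This comparison was added after the values were seen, and its cause was not tested.

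**Figure D4:**
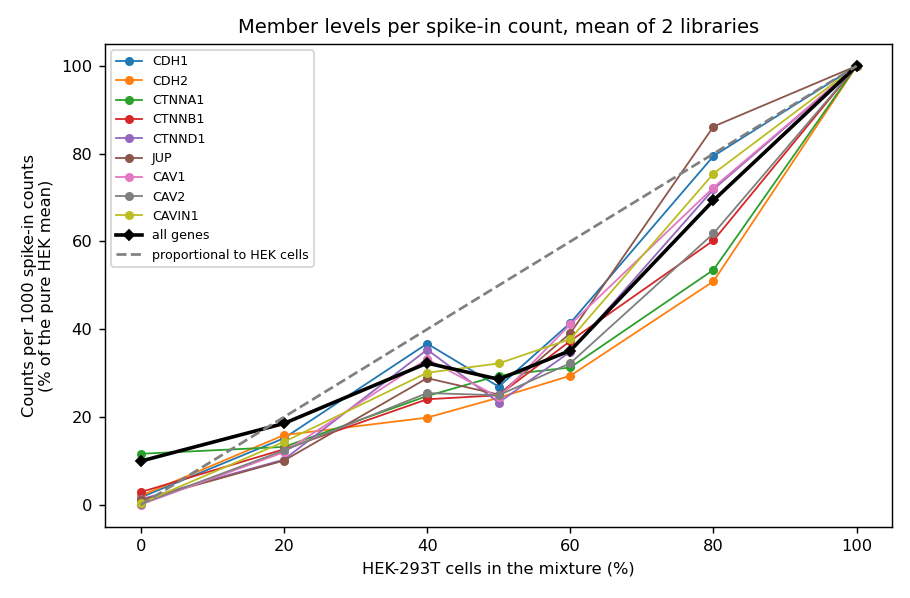
Counts per 1000 spike-in counts as a percentage of the pure HEK mean (mean of 2 libraries, linear axis) for 9 members and for all genes in black, against the percentage of HEK-293T cells. The dashed line is proportional to the HEK cells, and with 50% HEK cells CDH2 is at 24.4% and all genes at 28.6%.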

How the data were processed

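The authors aligned reads with STAR 2.6.1b (versions from the submitters' processing notes) to GRCh38 with the ERCC sequences, counted them with RSEM 1.3.1, and deposited expected counts, which are not normalized, for each library. The deposited TPM are scaled by RSEM over genes and spike-ins together and divided by transcript length. The libraries were made from mRNA captured on oligo-dT beads, with reads of 40 bases from cDNA that began at the oligo-dT primer, and how far counts grow with transcript length was not tested, so that TPM are approximate between genes. The libraries keep the strand, but whether counting used it is not given in the sources used here.

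Symbols and coordinates came from GENCODE release 44 for 57799 of 58440 genes. Spike-ins were left out of CPM. Expected counts were rounded and tested with edgeR 4.0.16 (glmQLFit, glmQLFTest, TMM, filterByExpr with 10 counts) in R 4.3.3, with Benjamini-Hochberg adjustment over all genes and a threshold of 0.05, between 2 pure HEK and 2 pure Jurkat libraries and as a slope over 10 mixed libraries. The fits were tested on simulated data. DESeq2 1.42.0 and limma 3.58.1, which tests log2(TPM + 1), were alternatives, with other scalings, filters, terms and each library left out. Libraries of a condition differed beyond sampling noise (chi-square per degree of freedom from 20.7 to 147) and were kept separate.

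The additive level weights the mean CPM of the pure lines by the HEK share of RNA, from the percentage of cells and the ratio of gene to spike-in counts. From each list, up to 4 genes in each direction past the threshold with the largest differences were named, and genes at 0 counts in all 4 pure libraries. PKP2, NECTIN2 and TWIST1 are named only for how they passed the filter, chosen after their values were seen. The members and lists were chosen with earlier results of these data known. Counting intervals are exact at 95%. The summed level of 1 list of marker genes is not reported here.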

Additional observations from a re-analysis of the deposited data

How the results depend on the processing

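Of the members called between the pure lines, CDH2, CTNNB1, CTNND1, JUP, CAV1, CAV2 and CAVIN1 kept their direction and call in all 12 alternative fits, whereas CDH1 lost its call in DESeq2, in limma on log2(TPM + 1) and log2(TPM + 0.1) and without any 1 library. In the main fit CDH1, CAV1, CAV2 and CAVIN1 passed the filter through the pure HEK libraries alone. They could only be called in this direction, so that their kept direction is no further support. CTNNA1, not called, turned from -0.39 to 3.11 on the log2 scale with spike-in scaling and to 0.87 without the first pure Jurkat library, with a range from -1.05 to 0.87 over the libraries left out. Genes called higher in HEK numbered 3825, or 14616 with spike-in scaling, and from 1769 to 3384 with a library left out. Genes called higher in Jurkat numbered 3002, or 509 with spike-in scaling, 1816 with all 14 libraries and the file group, 1984 with limma on log2(TPM + 1) and 1892 on log2(TPM + 0.1), and from 1362 to 2843 with a library left out. With spike-in scaling 96.6% of calls were higher in HEK, against 56.0%. Other cadherins called higher in HEK numbered 0 to 2 over the alternatives, other caveola genes 0 to 8, junction partners 10 to 19, destruction complex genes and partners 1 to 13 and repressors 4 to 7, where the last 4 upper ends came with spike-in scaling, under which 92.5% of all genes tested were called higher in HEK. Called higher in Jurkat were 2 to 6 of the destruction complex list and 0 to 1 of the repressors.

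Over the mixtures, genes called higher with HEK numbered 119, or 255 in DESeq2, 71 without the filter, 13654 with spike-in scaling, 37 with the file group, and from 23 to 220 with a library left out, lowest without the first library of the 20% mixture and highest without the first of the 40% mixture. Genes called lower numbered 893, or 225 with spike-in scaling, 443 with the file group, and from 557 to 998 with a library left out. Of the calls over the mixtures 98.4% were higher with HEK under spike-in scaling, against 11.8%. Members called higher numbered 1, or 9 with spike-in scaling, 0 without the filter, 0 with the file group, and from 0 to 1 with a library left out. The slope of CDH2, per 100% HEK cells, turned from -0.07 to 2.80 with spike-in scaling, to 0.13 with the file group, and to 0.12, 0.10 and 0.09 without the second library of the 80% mixture, the first and the second of the 20% mixture, with a range from -0.44 to 0.12 over the libraries left out. That of CTNNA1 turned from 0.10 to -0.15 without the second library of the 20% mixture, with a range from -0.15 to 0.27. By expected counts in place of TPM, CDH1 made up 1.75% of both cadherins in pure Jurkat, against 7.60%, from 2 counts in each library, and CAV2 made up 35.1% of both caveolins in pure HEK, against 14.2%. With the lowest and highest RNA ratio of the pure library pairs, chosen after seeing the data, the median of observed over additive level moved by less than the SD of single libraries for each member. The causes of these differences were not tested. No paired analysis was possible because the labels give no replicate numbers, and first and second library here mean only the order of listing. At 4468822 counts, the shallowest pure Jurkat library limits what can be said of CDH1, CAV1 and CAV2 there.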

Other observations

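Markers of further cell types were low. Summed over 5 myeloid genes, the level was at most 1.23 CPM in any library, and MPO was at 0 counts in the pure libraries. Over 6 fibroblast genes it was 13.1 and 12.3 CPM in pure HEK and 2.94 and 4.19 CPM in pure Jurkat, led by COL1A1. Over 5 endothelial genes it was at most 0.619 CPM in pure HEK. In pure Jurkat it was 28.8 and 46.7 CPM, all from PECAM1, which is also found on leukocytes, while VWF, KDR, CLDN5 and TEK were at 0 counts there.

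The HEK share of RNA estimated in each mixed library from genes other than the members by non-negative least squares differed most between the libraries with 50% HEK cells and least between those with 20%. It was 98.0% and 92.7% with 60% and 65.2% and 67.3% with 20%, where the share from spike-ins was 93.8% and 71.5%. It was 80.0% and 100% with 50% HEK cells, 75.1% and 88.9% with 40%, and 87.7% and 96.0% with 80%, whereas the share from spike-ins was 90.9%, 87.0% and 97.6%. In the 50% mixture, the library at 80.0% was in the file group of 8 and the other in the group of 6. The T cell genes gave 375 and 340 CPM in the same libraries, against 19.8 and 15.7 CPM in pure HEK. The estimate of 100% is therefore not an absence of Jurkat RNA, and its cause was not tested. With these shares the medians of observed over additive level were -0.36 for CTNNA1, -0.24 for CDH2 and 0.17 for CAV1.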
